A study of Mus musculus with 28 samples.

Results

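Ribosome footprints of primary cortical neurons expressing human TDP-43 with the A315T mutation were compared with those of neurons from non-transgenic littermates (WT). The comparison used 5 of the 28 libraries of the series, namely the footprint libraries of 3 hTDP-43 A315T cultures (replicates 1, 2 and 3) and of 2 WT cultures (replicates 2 and 3), chosen by cell type, library type and genotype in the sample labels. Neurons were prepared from cortices of embryonic day 16 mice, received 0.5 µM Ara-C, which removes dividing cells, and were harvested after 14 days in vitro, and all of this was shared by both genotypes. The transgene was hemizygous and driven by the prion promoter, so it was not restricted to neurons, and human and mouse TDP-43 reads were not counted separately. Beside some results, values are given for footprints, and in places total mRNA, of 3 cultures of a further genotype, hTDP-43. These carry human TDP-43 without the mutation under the same promoter and were handled alike. They came from a separate transgenic line, and the study reports somewhat more human protein in the mutant cultures, where it carried a Flag tag. Libraries with the same replicate number carry the same date in the labels, and no WT culture shares the date of hTDP-43 A315T replicate 1. Cultures of a genotype were separate samples, but the labels do not say whether they came from separate litters, so p-values measure only the spread between these cultures.

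TDP-43 is a mainly nuclear RNA-binding protein that regulates splicing, transport and stability of many neuronal mRNAs, and mutations in its gene cause the motor neuron disease ALS and also occur in frontotemporal dementia (FTD). Ribosome profiling sequences the mRNA fragments that ribosomes shield from RNase, so that the footprints of a gene report how many ribosomes were on its mRNA. A footprint count therefore moves with the amount of an mRNA as well as with its translation, and total mRNA of the same cultures was sequenced to separate these.

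The 5 footprint libraries held between 473805 and 2528820 assigned reads, and 3 counts stood for 1.19 to 6.33 CPM (read counts relative to library size), the level that a count of 0 allows. Levels below are CPM scaled by TMM, with 1 library per culture, and fold changes are log2 values of hTDP-43 A315T over WT with their standard errors. hTDP-43 A315T replicate 3 stood apart by 1 transcript, since the unclassified RNA gene Gm37194 took 10.8% of its reads. Among the total mRNA libraries of these cultures, WT replicate 3 stood apart, with 18.8% of its reads on Lars2, against 3.09% to 7.49% in the other 4. The hTDP-43 total mRNA library of its date, replicate 3, had 14.1% on Lars2, and hTDP-43 replicates 1 and 2 had 6.84% and 4.16%.

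The libraries had the marker profile of cortical neurons. General neuronal markers such as Tubb3, Map2 and Snap25 summed to between 7285 and 8443 CPM, and all 10 were detected in every one of the 5 libraries. Markers of excitatory neurons summed to between 1582 and 2044 CPM and those of GABAergic interneurons, which include the abundant peptide Sst and the matrix protein Reln, to between 2934 and 3933 CPM. The interneuron sum was 3191 and 3933 CPM in WT and 3505, 2934 and 2963 CPM in hTDP-43 A315T, and 0 of its 12 members passed the test. Astrocyte markers reached 321 to 589 CPM and overlapped between the groups, although Gfap itself stayed between 0.404 and 14.3 CPM. Markers of the oligodendrocyte lineage summed to 52.5 to 76.2 CPM, of endothelial and mural cells to 12.1 to 20.6 CPM, of meningeal fibroblasts to 16.1 to 81.2 CPM and of blood cells to at most 2.42 CPM. Microglial markers summed to at most 13.3 CPM, with 7 to 10 of their 12 genes at 0 counts, and 0 of the 12 could be tested. Markers of cycling progenitors summed to 128 to 188 CPM, with 0 to 4 of their 10 genes at 0 counts, and 4 of them (Nes, Sox2, Vim and Ccnd1) could be tested. Mki67, which marks dividing cells, was at 0 counts in 4 of the 5 libraries.

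Of 9510 genes tested, 0 differed between hTDP-43 A315T and WT at an adjusted p below 0.05 (0%; edgeR quasi-likelihood test, Benjamini-Hochberg adjustment; smallest adjusted p = 0.716). Without adjustment 300 genes (3.15%) had a p below 0.05, of which 155 were higher and 145 lower in hTDP-43 A315T, and DESeq2 passed 1 gene. With replicates 2 and 3 alone, the set in which both genotypes share their dates, 0 of 8769 genes passed and 420 (4.79%) had an unadjusted p below 0.05. The fold change of most genes was small: 89.7% of the tested genes lay within 0.5 log2 units of no difference, 1.26% lay beyond 1 unit, and the median was 0.0021. The 95% interval was narrow enough to leave out a 2-fold change in either direction for 5628 of the 8461 genes with a standard error (66.5%). Of all tested genes, 921 had all 3 hTDP-43 A315T libraries above both WT libraries and 844 had all 3 below them, 18.6% together.

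**Figure D1:**
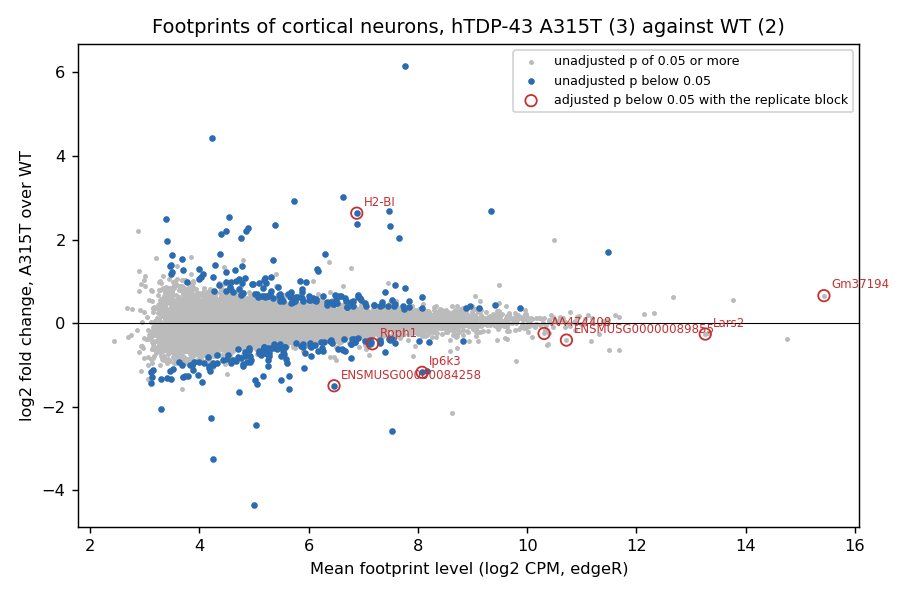
Log2 fold change of hTDP-43 A315T (3 libraries) over WT (2 libraries) against the mean footprint level in log2 CPM, 1 point per tested gene; blue points have an unadjusted p below 0.05. The 9510 genes form a band around 0 that narrows with level, and the 8 ringed genes passed the threshold with the replicate block and not in the fit plotted.

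With the replicate number as a block, so that cultures were compared within dates, 8 of 9510 genes passed (0.0841%), 2 higher and 6 lower. hTDP-43 A315T replicate 1 has no WT partner, so the genotype difference in this fit rests on replicates 2 and 3. The fit had 1 residual degree of freedom to estimate the spread of a gene. The gene with the smallest adjusted p was Gm37194 (GRCm38 chr14:50061360-50064390, plus strand), an unclassified transcript. Its footprint level was 14257 and 49449.6 CPM in WT replicates 2 and 3, and 8787, 30394 and 113919 CPM in hTDP-43 A315T replicates 1, 2 and 3. The groups overlapped, but within each shared date the hTDP-43 A315T library was above the WT library, and the log2 fold change was 1.14 ± 0.13 (SE) with the block (edgeR adjusted p = 0.00549) against 0.66 ± 0.79 without it (adjusted p = 1). In hTDP-43 neurons of the same dates the level was 33611 CPM in replicate 2 and 93173 CPM in replicate 3.

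H2-Bl (chr17:36080115-36084223, minus strand) was the other gene higher with the block. It belongs to the MHC class I gene family and is annotated as a polymorphic pseudogene, so reads of near-identical family members may be placed on it. Its level was 27.1 and 27.6 CPM in WT and 225, 59.3 and 203 CPM in hTDP-43 A315T, with no overlap between the groups. The log2 fold change was 2.63 ± 0.46 without the block (edgeR adjusted p = 0.716) and 2.02 ± 0.31 with it (adjusted p = 0.0323). In hTDP-43 neurons its level was 199 CPM in replicate 1, so high values were not limited to the mutant. It was 15.1 CPM in replicate 2 and 18.7 CPM in replicate 3. These lie near the floor, since 3 counts stood for 15.6 and 18.1 CPM in those shallow libraries (192008 and 166064 reads).

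Lars2, the mitochondrial leucyl-tRNA synthetase gene (chr9:123366940-123462664), had 9825 and 11444 CPM in WT and 17435, 5660 and 3943 CPM in hTDP-43 A315T, and Rpph1, the RNA subunit of RNase P, had 141 and 206 CPM against 203, 67.5 and 71.7 CPM. In both, replicate 1 of hTDP-43 A315T was among the highest libraries and replicates 2 and 3 were the lowest. Lars2 also had the most reads of any gene in every total mRNA library of these cultures, at 28040 to 228457 CPM. Whether all reads on Lars2 come from its own mRNA was not tested. The unclassified AA474408 and the gene ENSMUSG00000089855, which GENCODE M21 does not list, fell by 1.07 and 1.06 log2 units with the block and overlapped between the groups. ENSMUSG00000084258 did not overlap, at 82.7 and 211 CPM in WT and 48.4, 40.9 and 59.6 CPM in hTDP-43 A315T. Ip6k3, an inositol hexakisphosphate kinase, had 187 and 618 CPM in WT and 119, 98.2 and 309.9 CPM in hTDP-43 A315T. Among the 8 genes, Lars2 and Ip6k3 are protein-coding, and with only protein-coding genes in the block fit 0 of 9349 passed. With the block on replicates 2 and 3 alone, 1 gene passed, Gm37194. Without the block, H2-Bl also passed when hTDP-43 A315T replicate 2 was left out (edgeR adjusted p = 0.00299) and ENSMUSG00000084258 when WT replicate 2 was left out (adjusted p = 0.0208). Without the filter on low counts, Gm37194, H2-Bl, Ip6k3 and ENSMUSG00000084258 passed as well.

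The protein-coding genes with the smallest unadjusted p had adjusted p-values of 0.716 or 1, and their values are descriptions. On the higher side, Nr4a3, an orphan nuclear receptor induced by neuronal activity, had 122 and 107 CPM in WT and 223, 180.1 and 179 CPM in hTDP-43 A315T (log2 fold change 0.75 ± 0.17, 95% interval 0.38 to 1.13). Tenm2, a synaptic adhesion protein of the teneurin family, had 208 and 185 CPM in WT and 305, 325 and 297 CPM in hTDP-43 A315T (0.63 ± 0.15). Irs2, an adaptor of the insulin receptor, had 90.8 and 77.7 CPM against 154, 121 and 129 CPM (0.67 ± 0.18). In these 3 genes the 5 libraries did not overlap between groups, and the fold changes with replicates 2 and 3 alone were 0.63, 0.65 and 0.55. The genes were chosen by their p on these same libraries, so this is not further support. All 139 genes that were higher at an unadjusted p below 0.05 and could be tested with replicates 2 and 3 kept their sign there. Of these, 67 kept such a p. On the lower side all 135 such genes kept their sign and 80 kept such a p. These genes too were picked by p on libraries that both fits share, so a kept sign is not further support. The corepressor Ctbp2 had 22.7 and 20.7 CPM in WT and 37.9, 51.2 and 45.4 CPM in hTDP-43 A315T. Nthl1, a base excision repair glycosylase, and Kirrel2 were covered by 3 to 10 counts in each WT library.

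On the lower side, some differences came with a high value in WT replicate 2 alone. Nfkb1, the precursor of the p50 subunit of NF-kB, had 602 CPM in WT replicate 2 but 91.6 CPM in WT replicate 3, against 80.7, 38.9 and 48.5 CPM in hTDP-43 A315T. Its log2 fold change was -2.58 ± 0.54, -0.65 without WT replicate 2 and -3.32 without WT replicate 3, and Nfkb1, Micall2 and Fam186a were the 3 genes that passed when WT replicate 3 was left out. Micall2, which binds Rab GTPases at cell junctions, had 54.9 and 12.1 CPM in WT and 3.23, 6.14 and 4.04 CPM in hTDP-43 A315T. The transcription factor Rfx1 had 66.6 and 27.6 CPM against 15.7, 12.3 and 27.3 CPM, and the protocadherin Pcdhb10 60.8 and 91.6 CPM against 26.2, 18.4 and 45.4 CPM. The transcriptional repressor Gfi1 had nearly equal WT values, 32.2 and 32.8 CPM, against 4.04, 20.5 and 4.04 CPM. Mpeg1, a pore-forming protein of macrophages, was at 3.63 to 4.09 CPM in hTDP-43 A315T and at 11.7 and 22.5 CPM in WT.

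Endogenous Tardbp, the mouse gene for TDP-43, had 95.9 and 96.7 CPM in WT and 80.3, 92.1 and 74.7 CPM in hTDP-43 A315T. All 3 transgenic libraries were below both WT libraries, but the log2 fold change of -0.26 ± 0.18 had an interval from -0.66 to 0.15 and did not pass. Reads of the human transgene may or may not align to this gene, so it does not check the transgene. The related RNA-binding proteins Taf15, Ewsr1, Hnrnpa1, Hnrnpa2b1, Matr3 and Tia1 had fold changes between -0.23 and 0.21, and 0 of them passed.

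Of 20 tested mRNAs known as targets of TDP-43, 0 passed in either direction, and their median fold change was 0.11 against 0.0021 for all genes. Stmn2, the axonal growth protein stathmin-2, had 1463 and 1435 CPM in WT and 1124, 1222 and 1361 CPM in hTDP-43 A315T (-0.24 ± 0.16, interval -0.59 to 0.10). Map1b, a microtubule-associated protein, had 3382 and 2707 CPM against 3800.2, 2748 and 3586 CPM, and Mapt, the gene for tau, had 956 and 974 CPM against 774, 851 and 1163 CPM. Both overlapped between groups. Kcnip2, a subunit of potassium channels, was the member with the smallest unadjusted p (0.0413 in the edgeR test), at 51.3 and 27.6 CPM in WT and 28.2, 30.7 and 19.2 CPM in hTDP-43 A315T. Of 22 tested ALS and FTD genes 0 passed, with a median of 0.09 and all 22 within 0.5 log2 units. The interval of Atxn2 was -0.07 to 0.59 and that of Ubqln2 -0.15 to 0.59.

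The study singled out 9 genes from its ribosome profiling, partly on these libraries, so their direction here is not independent evidence. Camta1 and Dennd4a are not among those it lists for both cell types, and its polysome assays of them used motor neuron-like MN1 cells. Of the 9 genes, 0 passed with the filter on low counts. Among them 4 had an unadjusted p below 0.05, all higher, against 3.15% of all genes in either direction. D630039A03Rik, Pth1r, Mid1ip1 and Gm25313 were among the 78 genes that passed without that filter. In the unfiltered fit the spread of a gene came from the trend over all genes, not from its own libraries. Camta1, a calmodulin-binding transcription activator, had 239 and 202 CPM in WT and 233, 219 and 243 CPM in hTDP-43 A315T (0.06 ± 0.15, interval -0.28 to 0.39). Dennd4a, an exchange factor for Rab10, had 73.2 and 51.8 CPM against 71.0, 61.4 and 40.4 CPM (-0.15 ± 0.26, interval -0.73 to 0.43). For both the groups overlapped and the interval left out a 2-fold change.

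The 4 study genes with an unadjusted p below 0.05 were each far higher in hTDP-43 A315T replicate 1 than in any other library. Mid1ip1, which encodes MIG12, a microtubule-binding partner of MID1, had 44.7 and 22.5 CPM in WT and 154, 47.1 and 43.4 CPM in hTDP-43 A315T. Its log2 fold change was 1.29 ± 0.51 over 5 libraries and 0.30 with replicates 2 and 3 alone. By immunostaining, the study also reports more MIG12 protein in neurites of hTDP-43 A315T than of WT cortical neurons, with no nuclear change. That is a measure of protein, taken at an earlier day in vitro. D630039A03Rik was at 3.66 and 6.91 CPM in WT and at 939.9, 22.5 and 10.1 CPM in hTDP-43 A315T. E2f5, a cell cycle transcription factor, had 6.59 and 10.4 CPM in WT and 68.6, 12.3 and 15.1 CPM in hTDP-43 A315T, and the parathyroid hormone receptor gene Pth1r 5.86 and 12.1 CPM against 71.0, 12.3 and 8.08 CPM. With replicates 2 and 3 alone, D630039A03Rik and Pth1r had too few counts to be tested, and 0 study genes were higher at an unadjusted p below 0.05. hTDP-43 replicate 1, from the same date, had 150.3 CPM of D630039A03Rik and 35.2 CPM of E2f5, and hTDP-43 replicate 2 had 0 counts of both, which at its depth allows up to 15.6 CPM.

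**Figure D2:**
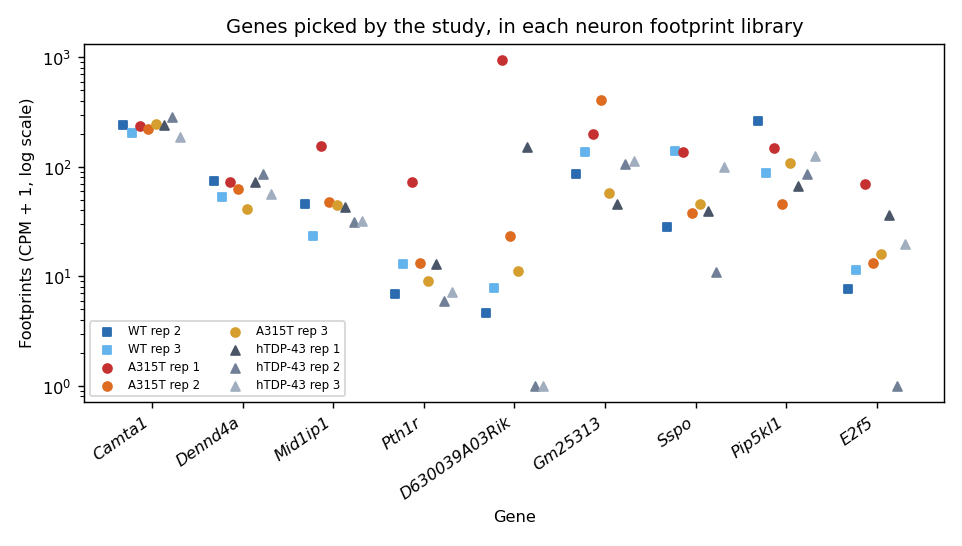
Footprint level (CPM + 1, log axis) of the 9 genes picked by the study in each of the 8 neuron footprint libraries; squares are WT, circles hTDP-43 A315T and triangles hTDP-43. hTDP-43 A315T replicate 1 lies above all other libraries for Mid1ip1, Pth1r, D630039A03Rik and E2f5, while the libraries of Camta1 lie together at 187 to 286 CPM.

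The remaining study genes were Gm25313, Sspo and Pip5kl1. Gm25313, a small nuclear RNA gene, ranged from 56.5 to 407 CPM within hTDP-43 A315T alone. Sspo, the gene for SCO-spondin, had 27.1 and 139.9 CPM in WT and 136, 36.8 and 44.4 CPM in hTDP-43 A315T, and its total mRNA was 4711 CPM in WT replicate 3 against 20.4 CPM in WT replicate 2. Pip5kl1, a kinase-like regulator of phosphoinositides, had 259 and 86.4 CPM in WT against 148, 45 and 107 CPM, with a fold change of -0.76 ± 0.41.

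Immediate-early genes, whose transcription follows neuronal activity within minutes, had the largest median of the protein-coding lists apart from the study genes. Of 20 tested, 0 passed, and 7 had an unadjusted p below 0.05, all 7 higher in hTDP-43 A315T, where 3.15% of all genes had such a p in either direction. Their median log2 fold change was 0.67. Egr1, a zinc finger transcription factor, had 124 and 119 CPM in WT and 352, 203 and 125 CPM in hTDP-43 A315T (0.91 ± 0.34). Fos had 34.4 and 32.8 CPM against 108, 57.3 and 28.3 CPM (1.01 ± 0.45), and Nr4a1 41.0 and 31.1 CPM against 144, 65.5 and 41.4 CPM (1.25 ± 0.45). Npas4, an activity-dependent transcription factor, had 22.7 and 20.7 CPM against 71.0, 36.8 and 23.2 CPM, and Arc, which regulates AMPA receptors at synapses, 26.4 and 15.5 CPM against 89.6, 22.5 and 20.2 CPM. In all 5 of these genes replicate 1 of hTDP-43 A315T was the highest library and replicate 3 lay close to WT.

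The list as a whole followed the same order. Its median difference from the WT mean, in log2(CPM + 1), was 1.03 in hTDP-43 A315T replicate 1, 0.52 in replicate 2 and 0.03 in replicate 3. In hTDP-43 neurons the corresponding medians were 0.84, 0.12 and 0.12, so both transgenic libraries of the date without a WT culture had high values. With replicates 2 and 3 alone the median fold change of the 17 members tested was 0.16 and 1 gene, Nr4a3, had an unadjusted p below 0.05. With the replicate block the median was 0.23, and 2 members had such a p. Across all genes 4.79% and 6.45% had such a p in the 2 fits. In total mRNA of the same cultures the median was 0.57, and the difference between footprints and total mRNA had a median of 0.15, with 0 members at an unadjusted p below 0.05. Date and genotype cannot be told apart in replicate 1.

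The integrated stress response, in which phosphorylation of eIF2α raises translation of Atf4 and then transcription of genes for amino acid synthesis and uptake, had the opposite order of replicates. Over the 5 libraries 0 of 18 tested members passed, 1 had an unadjusted p below 0.05 and the median was 0.26. With replicates 2 and 3 alone the median was 0.62, and 10 of the 18 had an unadjusted p below 0.05, all of them higher in hTDP-43 A315T, against 4.79% of all genes in either direction. With the replicate block the median was 0.60 and 11 had an unadjusted p below 0.05, against 6.45% of all genes, but again 0 passed adjustment, and the smallest adjusted p of the list was 0.218 for Slc7a5. The members share regulators and are not independent of each other.

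**Figure D3:**
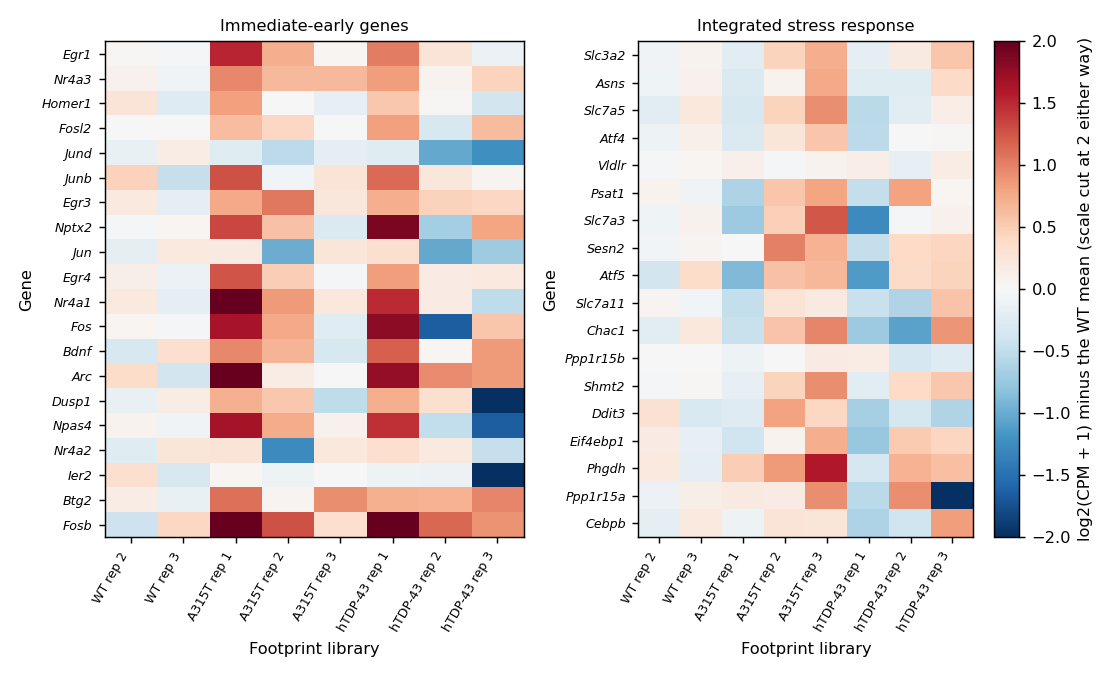
Difference of each tested gene from the WT mean in log2(CPM + 1), in the 8 neuron footprint libraries, for immediate-early genes (left) and integrated stress response genes (right), ordered by their level in WT replicate 2. Most immediate-early genes, apart from such members as Jund and Ier2, are raised (red) in replicate 1 of both transgenic genotypes, and most stress response genes are above WT in hTDP-43 A315T replicates 2 and 3 and below it (blue) in replicate 1. Colours end at 2 log2 units either way.

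Among the stress response genes, several serve amino acid transport and synthesis. Slc7a5, the light chain of the large neutral amino acid transporter, had 294 and 392 CPM in WT and 271, 465 and 648 CPM in hTDP-43 A315T. Its partner Slc3a2 had 379 and 418 CPM in WT and 339.8, 542 and 657 CPM in hTDP-43 A315T. Asns, asparagine synthetase, had 308 and 345 CPM against 266, 342 and 554 CPM, and the cationic amino acid transporter Slc7a3 had 82.7 and 93.3 CPM against 52.5, 123 and 209 CPM. For these 4 genes replicates 2 and 3 of hTDP-43 A315T were each above the WT library of their date, while replicate 1 was below both WT libraries. The same held for Psat1, a serine synthesis enzyme, with 114 and 104 CPM in WT and 70.6, 159.6 and 189.8 CPM in hTDP-43 A315T, and for Chac1, which degrades glutathione, with 46.1 and 62.2 CPM against 39.1, 79.8 and 106 CPM. Sesn2, a leucine sensor of the mTORC1 pathway, had 62.2 and 67.4 CPM in WT and 64.2, 131 and 105 CPM in hTDP-43 A315T.

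Atf4 itself had 176 and 204 CPM in WT and 155, 225 and 279.6 CPM in hTDP-43 A315T (0.19 ± 0.24 over 5 libraries, 0.42 with replicates 2 and 3). Phgdh, the entry enzyme of serine synthesis, did not overlap between groups, at 13.9 and 10.4 CPM in WT and 17.4, 22.5 and 38.4 CPM in hTDP-43 A315T (0.98 ± 0.44, unadjusted p = 0.0464 in the edgeR test). Vldlr, a lipoprotein receptor, varied least, from 137 to 152 CPM. In hTDP-43 neurons the list's median difference from the WT mean was -0.50, -0.02 and 0.40 in replicates 1, 2 and 3, and in hTDP-43 A315T it was -0.27, 0.45 and 0.72. In total mRNA the median fold change of the list was 0.39, and the difference between footprints and total mRNA had a median of -0.12 with 0 of its members at an unadjusted p below 0.05. The aminoacyl-tRNA synthetases, which include further targets of ATF4, had a median of 0.01 over 5 libraries, and 0 passed without the block. With replicates 2 and 3 alone, 4 of the 31 tested were higher and 2 lower at an unadjusted p below 0.05, against 4.79% of all genes, among them Tars with 77.6 and 67.4 CPM in WT and 104 and 128 CPM in hTDP-43 A315T replicates 2 and 3.

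Transcription of many of these genes is known to be driven through a C/EBP-ATF response element, and the promoter windows of RefSeq (GRCm38.p6, from 250 bases before to 50 after the start) were searched for its letters TGATGNAAN on both strands. Of 18 tested members 14 had a window, and 4 of these (28.6%) held the letters, against 4.50% of the 27025 genes with a window. The stretches are shown for 3 amino acid and glutathione genes described here, 5′ to 3′ on the strand of the gene, with the matching letters in capitals. They lie at chr6:7693213-7693242 (minus strand), chr2:119351038-119351067 (plus strand) and chr3:50443660-50443689 (minus strand), in this order.
Asns: cccagccacaTGATGAAACttcccgcacgc
Chac1: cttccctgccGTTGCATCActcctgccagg
Slc7a11: ctcatgtggcTGATGCAAAcctggagaatt
The match in Asns starts 23 bases before the start site and that in Chac1, on the opposite strand, 194 bases before it. Slc7a11, the cystine transporter, had 56.4 and 51.8 CPM in WT and 38.7, 65.5 and 61.6 CPM in hTDP-43 A315T, and its window held a further match on the opposite strand, nearer the start site. Vldlr was the other member with the letters. The letters of the cAMP response element, TGACGTCA, were found in 2 of the 15 immediate-early genes with a window, Btg2 and Dusp1 (13.3%, against 2.03% of all genes). A match is a description of letters, not of a bound site.

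Within-date differences were set side by side because they share no library. Over 3608 genes with a mean of at least 50 counts in the 4 libraries of replicates 2 and 3, the differences hTDP-43 A315T minus WT had the same sign on both dates for 53.3% of genes, and their correlation across genes was 0.07 (Pearson) and 0.10 (Spearman). Genes are not independent replicates, and differences in library composition enter both dates. The SD of the differences was 0.35 log2 units on each date, below the SD of 0.40 between the WT libraries and 0.41 between the hTDP-43 A315T libraries of different dates. A difference beyond 1 log2 unit in the same direction on both dates was found for 3 genes, Gm37194 and H2-Bl, which were higher, and Rpph1, which was lower. Of the 11 stress response genes in this set, 11 were higher on both dates, with medians of 0.51 in replicate 2 and 0.65 in replicate 3, while 29.7% of all genes were higher on both.

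**Figure D4:**
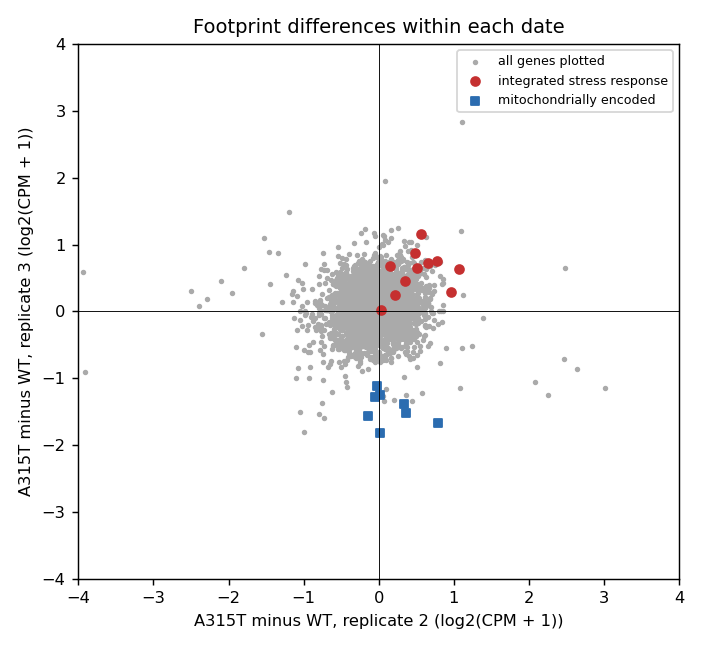
Difference of hTDP-43 A315T minus WT in log2(CPM + 1) within replicate 3 against that within replicate 2, 1 point per gene (3608 genes with a mean of at least 50 counts). The 11 integrated stress response genes (red circles) lie in the upper right, where both differences are above 0, and the 8 mitochondrially encoded genes (blue squares) all lie below 0 in replicate 3, while 5 of them lie above 0 in replicate 2.

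The 8 tested genes encoded in mitochondrial DNA, all subunits of the respiratory chain or ATP synthase, had a median fold change of -0.51, and 0 passed. With replicates 2 and 3 alone the median was -0.75 and with the replicate block -0.62, and in each of these fits 5 of the 8 were lower at an unadjusted p below 0.05, while 0 passed. Across all genes 4.79% and 6.45% had such a p in either direction in the 2 fits. mt-Co1, a subunit of cytochrome c oxidase, had 768 and 2394 CPM in WT and 1506, 990.4 and 831 CPM in hTDP-43 A315T. mt-Cytb had 816 and 2330.2 CPM against 1447, 1033 and 895 CPM, and mt-Nd2 270.2 and 708 CPM against 427, 246 and 238 CPM. In each of them WT replicate 3 was the highest of the 5 libraries and WT replicate 2 lay within or near the range of hTDP-43 A315T. The median within-date difference was 0.02 in replicate 2 and -1.45 in replicate 3. In replicate 3 the summed level of all 13 such genes was 8770 CPM in WT, 7661 CPM in hTDP-43 and 3248 CPM in hTDP-43 A315T. In replicate 2 the sums were 3327, 5293 and 3880 CPM in the same order. These mRNAs are translated by mitochondrial ribosomes, and the share of such ribosomes in the collected fractions was not measured. The 79 nuclear-encoded subunits had a median of -0.07, with 78 within 0.5 log2 units, and Atp5b, the catalytic subunit of ATP synthase, had 1566 and 1613 CPM in WT and 1625, 1713 and 1605 CPM in hTDP-43 A315T.

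Synaptic and cytoskeletal genes, many of them among the best covered, showed small differences. All 20 presynaptic genes, all 20 genes of the postsynaptic density and all 19 neurofilament, tubulin and associated genes lay within 0.5 log2 units, with medians of 0.02, 0.10 and 0.05, and 0 passed. Syp, the vesicle protein synaptophysin, had 1874 and 1733 CPM in WT and 1606, 2055 and 1986 CPM in hTDP-43 A315T (0.05 ± 0.17, interval -0.33 to 0.42). Camk2b, a subunit of CaMKII, had 1060.3 and 993 CPM against 1064, 1070.2 and 1173 CPM (0.09 ± 0.15, interval -0.25 to 0.42). Gap43, a growth cone protein, had 1218 and 1202 CPM against 921, 986 and 1009 CPM and did not overlap, with a log2 fold change of -0.33 ± 0.15 (interval -0.66 to 0.0003). Cplx1, complexin-1, which clamps vesicle fusion, had 342 and 340.3 CPM in WT and 328, 227 and 253 CPM in hTDP-43 A315T (-0.34 ± 0.17).

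Genes of the translation machinery also showed small differences. Of 82 tested cytosolic ribosomal proteins, 0 passed and the median was -0.08, with 77 within 0.5 log2 units. Rpl8 had 319 and 314 CPM in WT and 326, 334 and 354 CPM in hTDP-43 A315T (0.08 ± 0.15), and Rpl13a, with the smallest unadjusted p of the list, 139 and 114 CPM against 105, 96.2 and 95.9 CPM. Many of these genes have processed pseudogenes, so their counts are uncertain. Translation factors had a median of -0.02 over 32 genes. Eef2, which moves the ribosome along the mRNA, had 1183 and 1021 CPM in WT and 1197, 1089 and 1359 CPM in hTDP-43 A315T (0.13 ± 0.16), and the initiation factor Eif5 116 and 155 CPM against 104, 79.8 and 105 CPM.

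Protein quality control and lipid genes gave no passing member either. Heat shock proteins had a median of 0.02 over 14 genes. The chaperone Hsp90ab1 had 1985 and 1579 CPM in WT and 1997, 1887 and 2058 CPM in hTDP-43 A315T, and the mitochondrial co-chaperonin Hspe1 47.6 and 46.6 CPM against 36.7, 28.6 and 32.3 CPM. The 35 tested proteasome subunits had a median of 0.04 and all lay within 0.5 log2 units. The 24 genes of cholesterol synthesis had a median of -0.03, and Hmgcs1, an early enzyme of that pathway, had 2181 and 1964 CPM in WT and 2117, 1864 and 2238 CPM in hTDP-43 A315T. Of 20 interferon-stimulated genes 2 could be tested, and of 24 cell cycle genes 6, none of which passed.

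**Figure D5:**
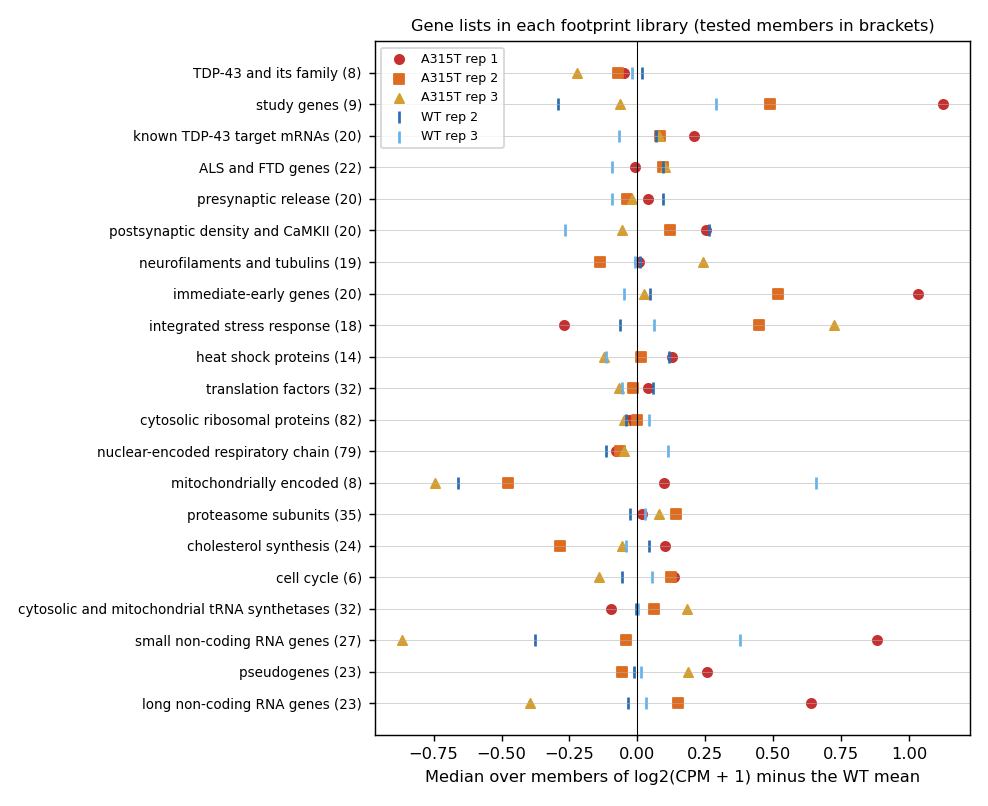
Median over the tested members of each gene list of log2(CPM + 1) minus the WT mean, in the 3 hTDP-43 A315T libraries (circle, square and triangle) and the 2 WT libraries (vertical ticks). Synaptic, ribosomal and proteasome lists lie within 0.27 of 0 in all 5 libraries, and the hTDP-43 A315T libraries lie widely apart for small non-coding RNA, study, long non-coding RNA, immediate-early and stress response genes.

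Non-coding transcripts varied widely between cultures. The tested small RNA genes (small nuclear, nucleolar, micro, ribosomal and other short classes, 27 genes) had median differences from the WT mean of 0.88, -0.04 and -0.87 in hTDP-43 A315T replicates 1, 2 and 3. For the 23 genes annotated as long non-coding or unclassified they were 0.64, 0.15 and -0.40. This annotation covers Cct6a and Zswim6, which carry names of protein-coding genes, so the list may not be of non-coding transcripts alone. Of the small RNA genes 5 were higher and 1 lower at an unadjusted p below 0.05, and of the long non-coding genes 2 and 1, against 3.15% of all genes. With the replicate block the directions turned: the median of the small RNA genes went from 0.37 to -0.31, with 6 higher and 8 lower, and that of the long non-coding genes from 0.25 to -0.44, with 1 higher and 3 lower. These counts are at an unadjusted p below 0.05, which 6.45% of all genes had in the block fit. The 23 tested pseudogenes had a median fold change of 0.08, with 2 higher and 1 lower at an unadjusted p below 0.05, against the same 3.15%. Gm24514, annotated as a miscellaneous RNA, had 9.52 and 10.4 CPM in WT and 127, 49.1 and 32.3 CPM in hTDP-43 A315T and was the gene that DESeq2 passed (adjusted p = 0.0267). Gm14236, an antisense transcript, had 11534 and 9732 CPM in WT and 31332, 11979 and 4028 CPM in hTDP-43 A315T. Footprint-sized fragments of such RNAs need not come from ribosomes, and their part in the differences was not tested. The authors removed reads that matched annotated non-coding RNAs before alignment, so these counts may be remainders rather than levels of the RNAs.

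In total mRNA of the same 5 cultures, 0 of 11927 genes passed (0%; edgeR, smallest adjusted p = 0.153), and 196 had an unadjusted p below 0.05, of which 174 were lower. DESeq2 passed 1 gene, Fam186a. With the replicate block 35 genes passed (0.293%), all 35 lower in hTDP-43 A315T. The genotype difference in that fit also rests on replicates 2 and 3, with 1 residual degree of freedom. The spread of a gene was taken there from the trend over all genes, with no weight on its own libraries. Total mRNA of WT replicate 3 stood apart among the 5 cultures, while hTDP-43 replicate 3 of the same date also had a high share of reads on Lars2. The part of WT replicate 3 in the calls with the block was not tested. Without the block, 1573 genes passed when WT replicate 2 was left out, which leaves replicate 3 as the only WT library, and 1 gene passed when WT replicate 3 was left out. The difference between footprints and total mRNA, tested as an interaction over 10 libraries, was past the threshold for 0 of 11831 genes (0%), with 195 at an unadjusted p below 0.05 and 0 passing under DESeq2. With the culture as a block it was also 0, and the smallest adjusted p was 0.120. Nr4a3 had a log2 fold change of 0.20 in total mRNA and an interaction of 0.55, and Tenm2 -0.15 and 0.78. Neither interaction had an unadjusted p below 0.05, so their differences could not be assigned to translation or to mRNA level. Of the 9 study genes 5 had a higher interaction at an unadjusted p below 0.05 (D630039A03Rik, Pth1r, Sspo, Gm25313 and E2f5), each with an adjusted p of 1. Across all genes 1.65% had such a p in either direction. In 4 of the 5, all but E2f5, total mRNA in WT replicate 3 was above that of every other library of the 5 cultures, with 87.4 CPM against 10.1 CPM in WT replicate 2 for D630039A03Rik, 76.0 against 15.6 CPM for Gm25313 and 29.9 against 10.3 CPM for Pth1r, beside the values of Sspo given above. Total mRNA of hTDP-43 replicate 3, from the same date, had 61.8 CPM of D630039A03Rik, 52.1 CPM of Gm25313 and 21.2 CPM of Pth1r.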

How the data were processed

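Footprint and total mRNA libraries of the 5 cultures were analysed, and footprint levels and a few total mRNA values of 3 hTDP-43 cultures are given beside some results. Per the labels, the file headers and the study's methods, the authors trimmed reads with cutadapt 1.8.1, used bowtie2 to remove those from annotated non-coding RNAs, aligned the remainder to GRCm38 with TopHat2, allowing mismatches in proportion to read length, and counted reads on exons with featureCounts 1.4.4 and Ensembl release 80. Footprints were size-selected fragments of RNase-treated monosomes and total mRNA was selected by poly(A). The deposited values are raw counts for 45513 genes, unstranded, so overlapping antisense genes cannot be told apart. Libraries of MN1 cells were not used here. Biotypes, symbols and positions came from GENCODE M21 (44671 genes matched).

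Counts were tested with edgeR 4.0.16 in R 4.3.3 (filterByExpr with minimum count 10 and minimum total 15, TMM, quasi-likelihood test, Benjamini-Hochberg, threshold 0.05), with the 2 groups alone in each fit, and translational efficiency as an interaction. Standard errors are the absolute fold change over the square root of F and are not given where p exceeded 0.9. Log2 differences between libraries used a pseudocount of 1 CPM. DESeq2 1.42.0 stood in for DESeq. The edgeR fit with genotype alone was tested on simulated footprint and total mRNA counts that held no difference between dates. The block, interaction and DESeq2 fits were not tested in this way. Depth was 473805 to 2528820 footprint reads and 2353325 to 5395138 total mRNA reads per culture, and limits from 3 counts cover counting error only.

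Replicate numbers pair cultures, since the same number carries the same date in the labels. As a check, deviations of replicates 2 and 3 from their group mean correlated between genotypes at 0.143 over 9510 genes in footprints and at 0.00087 over 11927 genes in total mRNA. Fits with the replicate block were therefore run beside the main ones.

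Genes were named by rule: those past the threshold in the footprint fit with or without the block, the 6 protein-coding genes with the smallest p in each direction, the study's genes, and of every list the 3 members with the highest CPM and the 1 with the smallest p, of which a selection is described. Further members of the immediate-early, stress response and marker lists, and Tardbp, were chosen after their values were seen, as were Fam186a and Gm14236 where a count pointed to them. The gene lists and the comparison were chosen with earlier results of these data known. 1 list member is not reported here.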

Additional observations from a re-analysis of the deposited data

How the results depend on the processing

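The footprint comparison passed 0 genes and did so with RLE scaling, with protein-coding genes only, with reads thinned to equal depth and with all 8 libraries in 1 fit. Other settings gave more: 78 genes without the filter on low counts (14 of them absent from the filtered genes), 1 with DESeq2, 8 with the replicate block, 1 with the replicate block on replicates 2 and 3 only, and 0 with the replicate block and protein-coding genes only, a setting chosen after seeing the data. Leaving out a culture gave 0 to 3 genes, with 3 without WT replicate 3 and 1 each without WT replicate 2 and without hTDP-43 A315T replicate 2. In total mRNA 209 genes passed without the filter, 1 with DESeq2, 35 with the replicate block, 32 with the replicate block on replicates 2 and 3 only, 31 with the replicate block and protein-coding genes only, and 0 to 1573 when a culture was left out. For translational efficiency the counts were 88 without the filter and 0 to 45 when a culture was left out (45 without WT replicate 2). The cause of these shifts was not tested. Where 1 WT culture remained, it was assumed to vary like the others. Across gene lists and settings, 260 medians moved by less than the spread between replicates or kept their side, and 42 moved further. For the named genes 1253 values kept direction and side, 80 moved further and 37 newly passed the threshold. The 2 WT libraries and the shallowest culture limit what low genes can show.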
